A study of Mus musculus with 8 samples.

Results

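Proteasome subunit genes were followed across 3 cell populations sorted from the mouse yolk sac, the membrane around the embryo in which the first blood cells and vessels form. The genes were every row of the count table whose symbol begins with Psm, followed by a letter from a to g and a number, and the rule used no measured value. It found 49 of 24454 rows: 19 core genes (8 Psma and 11 Psmb), 20 cap genes (6 Psmc and 14 Psmd) and 10 genes of activators, an inhibitor and assembly factors (5 Psme, 1 Psmf and 4 Psmg). The low-count filter, which needed about 10 reads in enough libraries, left 48 of the 49 among 12136 genes tested. The one left out was Psmb11, a catalytic subunit known from the thymic cortex, which had 0 counts in all 8 libraries.

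The double positive pools were VE-Cadherin+ GFP+ cells (2 libraries of 24 cells each, replicates 7 and 8), which the labels call endothelial-erythroid. The erythroid pools were VE-Cadherin- GFP+ cells (3 libraries of 25 cells each, replicates 4 to 6) and the endothelial pools were VE-Cadherin+ GFP- cells (3 libraries of 25 cells each, replicates 1 to 3). All 8 came from miR144/451+/GFP yolk sacs of C57BL/6 background at E11.5, untreated and uncultured, so every library carried the reporter allele and none came from a wild-type embryo. Here GFP is read from 1 allele of a microRNA locus that is active in red cells, and VE-Cadherin is an adhesion protein of endothelial junctions. The labels do not say whether pools came from separate embryos, so the spread between libraries, and every p-value that rests on it, may be partly technical.

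Counts per library were 4637930 and 4818074 in double positive pools, 5291843 to 7618444 in erythroid pools and 3723128 to 4439165 in endothelial pools. Globin genes took 8.86% and 14.0% of counts in double positive pools, 54.5% to 56.5% in erythroid pools and at most 0.00404% in endothelial pools. Levels are given as CPM, the counts of a gene relative to its library's total, after trimmed-mean scaling (TMM), which resizes each library so that most genes match between libraries. Double positive pools held 431.6 and 581 CPM of 8 endothelial markers and 540.5 and 891 CPM of 8 erythroid markers, but 86930 and 88850 CPM of the 9 visceral endoderm markers such as Afp and Apoa1, against 10.1 to 22.2 CPM in erythroid pools and 29.3 to 45.7 CPM in endothelial pools. The 8 erythroid markers summed to 12910 to 13350 CPM in erythroid pools, where 7 of 8 endothelial markers and all 14 macrophage markers were at 0. Endothelial pools held 2386 to 3732 CPM of the 8 endothelial markers, at most 2.24 CPM of the erythroid markers (5 of 8 at 0, Klf1 and Gata1 among them), and also 1471 to 3771 CPM of the 14 macrophage markers, none of which was at 0. The double positive label was therefore met for both lineages at low level, beside a far larger visceral endoderm signal, and the cells are called double positive pools here after their sort. In pools of cells, fewer cells of a type and less RNA per cell cannot be told apart.

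The proteasome is the main machine that degrades ubiquitin-tagged proteins in the cytoplasm and nucleus. Its core is a barrel of stacked rings: the outer rings are made of alpha subunits (Psma) and the inner rings of beta subunits (Psmb), of which Psmb5, Psmb6 and Psmb7 cut peptide bonds. The cap binds ubiquitin and unfolds the substrate with a ring of ATPases (Psmc). It feeds the substrate into the barrel through a base and lid (most Psmd genes). Classes here follow gene symbols, so the cap class also counts assembly chaperones such as Psmd5. In immune cells and after interferon, Psmb8, Psmb9 and Psmb10 replace the standard cutting subunits and form the immunoproteasome, which makes peptides for class I MHC display. Red cell precursors are known to use ubiquitin and the proteasome to clear proteins as they mature.

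The median proteasome gene differed by more than the median of all genes in both GFP+ populations when set against endothelial pools, and by less in double positive against erythroid pools. In erythroid against endothelial pools 22 of 48 members were higher and 4 were lower, and 22 did not pass edgeR's quasi-likelihood test with Benjamini-Hochberg adjustment over all genes (adjusted p below 0.05). The background over all genes was 14.4% higher, 26.6% lower and 41% in either direction, and the median difference was 0.46 on the log2 scale for members against -0.36 for all genes. For double positive against endothelial pools the calls were 14 higher and 3 lower, where the background was 14.6% higher, 6.92% lower and 21.6% in either direction, with medians of 0.49 for members and 0.06 for all genes. In double positive against erythroid pools 8 members were higher and 12 lower, where the background was 31.5% higher, 10.6% lower and 42% in either direction, with medians of 0.00 for members and 0.71 for all genes. Libraries of the compared populations did not overlap for 38, 36 and 28 of the 48 members, in the same order of comparisons, where 50.8%, 57.5% and 67.5% of all genes did not overlap. These comparisons share libraries, so they are not independent of one another.

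The direction of the set depended on how libraries were scaled. With library size alone the median of all genes moved by -1.54 in erythroid against endothelial pools, by -0.63 in double positive against endothelial pools and by 0.90 in double positive against erythroid pools (log2). The member calls were then 1 higher and 39 lower, 1 higher and 11 lower, and 24 higher and 1 lower, in the same order of comparisons. A change of library size moves members and other genes by the same amount, so the place of the members relative to all genes is fixed under it by construction. The median member lay 0.82 above the median of all genes in erythroid against endothelial pools, 0.43 above it in double positive against endothelial pools and 0.71 below it in double positive against erythroid pools. With the summed proteasome counts used as library size, the split was 6 higher and 7 lower, 1 higher and 9 lower, and 10 higher and 11 lower. Each direction below is on the TMM scale unless another scale is named, and with library size alone every core and cap gene tested except Psmd5 had a negative difference in erythroid against endothelial pools.

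**Figure D1:**
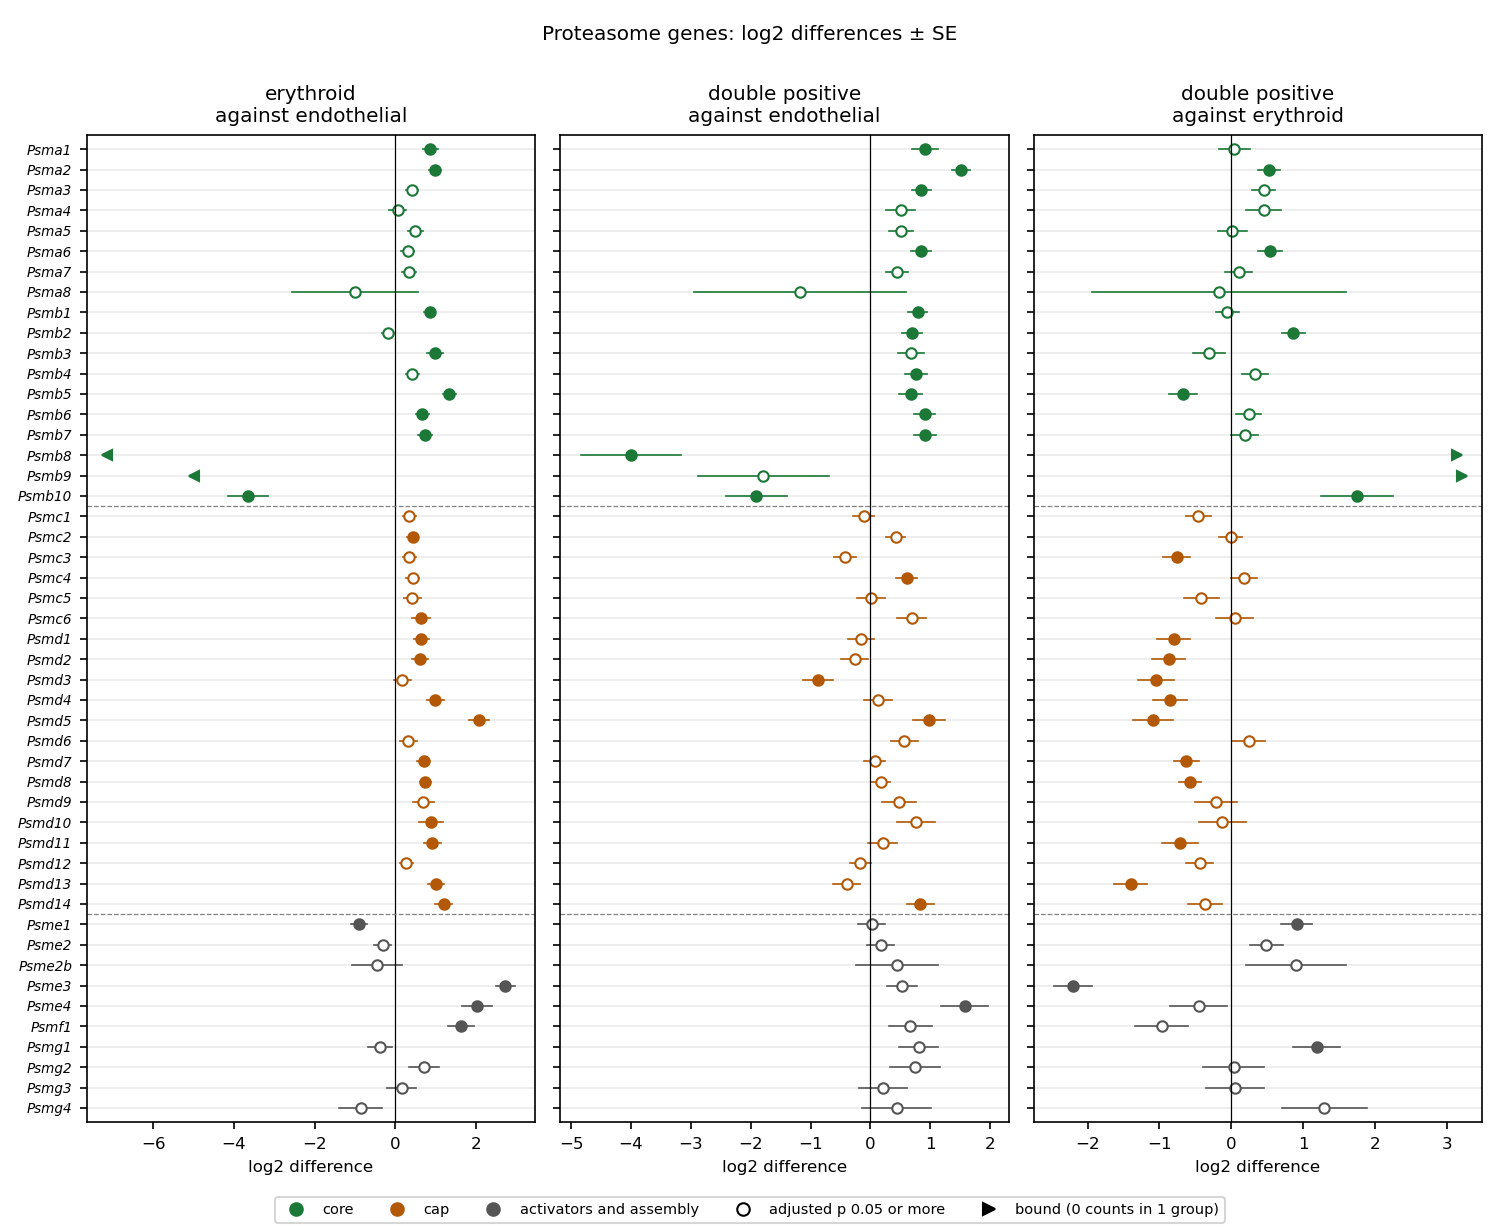
Log2 difference (x axis) of each of the 48 tested members listed down the page, in 3 comparisons; bars are SE, filled points passed adjusted p below 0.05, open points did not, and triangles mark bounds where one population had 0 counts. Cap genes (orange) lie mainly right of 0 in erythroid against endothelial pools and mainly left of 0 in double positive against erythroid pools, and Psmb8, Psmb9 and Psmb10 lie far from the other core genes.

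The summed level of all members was 6527 and 8380 CPM in double positive pools, 7516 to 8297 CPM in erythroid pools and 4997 to 5402 CPM in endothelial pools. As a plain share of counts the order differed, with 0.737% and 0.855% in double positive pools, 0.43% to 0.481% in erythroid pools and 0.823% to 0.896% in endothelial pools. With globin genes and the ribosomal RNA gene Rn45s left out of the total, the share was 0.93% and 1.17% in double positive pools, 1.33% to 1.48% in erythroid pools and 1.05% to 1.12% in endothelial pools. With globin genes alone left out, a total chosen after seeing the data, it was 0.809% and 0.993% in double positive pools, 0.981% to 1.06% in erythroid pools and 0.823% to 0.896% in endothelial pools. Erythroid pools were therefore lowest of the 3 populations over the full total, overlapped double positive pools without globin reads and were highest without globin and Rn45s reads.

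The widest differences in the family were in the immunosubunits, which were at 0 or near 2 CPM in erythroid pools. Psmb8, the immune counterpart of Psmb5, had 1.34 and 3.66 CPM in double positive pools, 0 counts in all 3 erythroid pools, and 46.7, 56.6 and 17.3 CPM in endothelial pools. Psmb9, the counterpart of Psmb6, had 0.764 and 4.48 CPM in double positive pools, again 0 counts in all 3 erythroid pools, and 7.66, 12.4 and 7.26 CPM in endothelial pools. Psmb10, the counterpart of Psmb7, had 5.54 and 10.6 CPM in double positive pools, 2.33, 2.85 and 1.95 CPM in erythroid pools, and 32.6, 30.8 and 27.3 CPM in endothelial pools. No library of one population overlapped another for any of the 3 genes, with endothelial pools highest, double positive pools between and erythroid pools lowest. The counts behind these levels are small outside endothelial pools: 7 and 18 reads of Psmb8, 4 and 22 of Psmb9 and 29 and 52 of Psmb10 in double positive pools, and 10, 9 and 6 reads of Psmb10 in erythroid pools.

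In erythroid against endothelial pools Psmb8 was at least 141-fold lower (adjusted p = 0.000568) and Psmb9 at least 31.9-fold lower (adjusted p = 0.00445), where each bound sets 3 counts over the erythroid pools in place of 0. Psmb10 was 12.6-fold lower in erythroid pools (log2 difference -3.65 ± 0.48 SE, adjusted p = 0.00039). All 3 calls held without any single library and under each scaling tried. Psmb8 was, in double positive against endothelial pools, 16-fold lower (-4.00 ± 0.84, adjusted p = 0.0177) and Psmb10 was 3.74-fold lower (-1.90 ± 0.51, adjusted p = 0.0288). Psmb9 differed by -1.79 ± 1.09 there and did not pass (adjusted p = 0.317). The Psmb8 call failed without endothelial replicate 1 or 2 or double positive replicate 7 or 8 (highest adjusted p 0.125), and the Psmb10 call failed without any one of the 5 libraries compared (highest adjusted p 0.27). In double positive against erythroid pools Psmb8 was at least 8.77-fold higher (adjusted p = 0.0113), Psmb9 at least 9.19-fold higher (adjusted p = 0.0155) and Psmb10 3.36-fold higher (1.75 ± 0.50, adjusted p = 0.0216). Without double positive replicate 8 the Psmb9 and Psmb10 calls failed (adjusted p up to 0.109 and 0.213), whereas Psmb8 kept adjusted p of at most 0.048 without any single library.

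The standard cutting subunits went the other way. Psmb5, the chymotrypsin-like subunit, had 91.1 and 109.9 CPM in double positive pools, 164, 139 and 178 CPM in erythroid pools, and 62.3, 65.4 and 61.8 CPM in endothelial pools. Psmb6, the caspase-like subunit, had 366.5 and 485 CPM in double positive pools, 343, 334 and 403.5 CPM in erythroid pools, and 253, 228 and 201.5 CPM in endothelial pools. Psmb7, the trypsin-like subunit, had 237 and 301 CPM in double positive pools, 222, 251 and 239 CPM in erythroid pools, and 139, 167 and 121 CPM in endothelial pools. Endothelial pools were lowest for all 3 genes without overlap, and only Psmb5 separated erythroid pools from double positive pools without overlap. Psmb5 was 2.53-fold higher in erythroid than in endothelial pools (1.34 ± 0.17, adjusted p = 0.000304), with Psmb6 at 0.66 ± 0.16 (adjusted p = 0.00907) and Psmb7 at 0.74 ± 0.17 (adjusted p = 0.00695). With library size alone these 3 differences were -0.20, -0.88 and -0.81, so their direction rests on the scaling, whereas that of the immunosubunits does not. In double positive against endothelial pools Psmb6 was higher by 0.90 ± 0.17 (adjusted p = 0.0076) and Psmb7 by 0.92 ± 0.18 (adjusted p = 0.00871), and without double positive replicate 8 their adjusted p values were 0.0768 and 0.0946. Psmb5 lay between, higher in double positive than in endothelial pools by 0.67 ± 0.18 (adjusted p = 0.033) and lower than in erythroid pools (-0.67 ± 0.19, adjusted p = 0.0206), and both calls failed without either double positive library and without some libraries of the other population (adjusted p up to 0.29 and 0.179).

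A share within the catalytic subunits does not depend on library scaling. The 3 immunosubunits made 1.09% and 2.05% of the reads of the 6 catalytic beta subunits in double positive pools, 0.318%, 0.392% and 0.238% in erythroid pools, and 16.1%, 17.8% and 11.9% in endothelial pools. The means were 1.57% ± 0.679 (SD, n = 2) in double positive pools, 0.316% ± 0.077 (SD, n = 3) in erythroid pools and 15.2% ± 3.04 (SD, n = 3) in endothelial pools, and no library of one population overlapped another. Per kilobase of transcript, where levels of different genes can be compared, the share was 1.04% in double positive pools, 0.22% in erythroid pools and 10.1% in endothelial pools. Macrophages are a known site of immunoproteasome expression, and between populations the macrophage markers moved with this share. They summed to 103.3 and 171 CPM in double positive pools, 0 in every erythroid pool and 1471, 3771 and 1567 CPM in endothelial pools. All 14 were detected in both VE-Cadherin+ populations, but not in every double positive library. Adgre1, Fcgr1, C1qa, C1qb, C1qc, Ptprc, Cx3cr1, Tyrobp, Aif1 and Spi1 were at 0 in 1 of the 2 double positive libraries. Mrc1 alone had 66.1 and 91.4 CPM in double positive pools, so their macrophage sums rest largely on this gene. Endothelial replicate 2 had the highest macrophage sum, the highest Psmb8 and Psmb9 and the highest share. Endothelial replicate 1 had the lowest macrophage sum of the endothelial pools but a share of 16.1% and the highest Psmb10. Endothelial replicate 3, with a macrophage sum of 1567 CPM, had the lowest Psmb8 and the lowest share. The part of macrophage RNA in the immunosubunit levels was not tested.

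**Figure D2:**
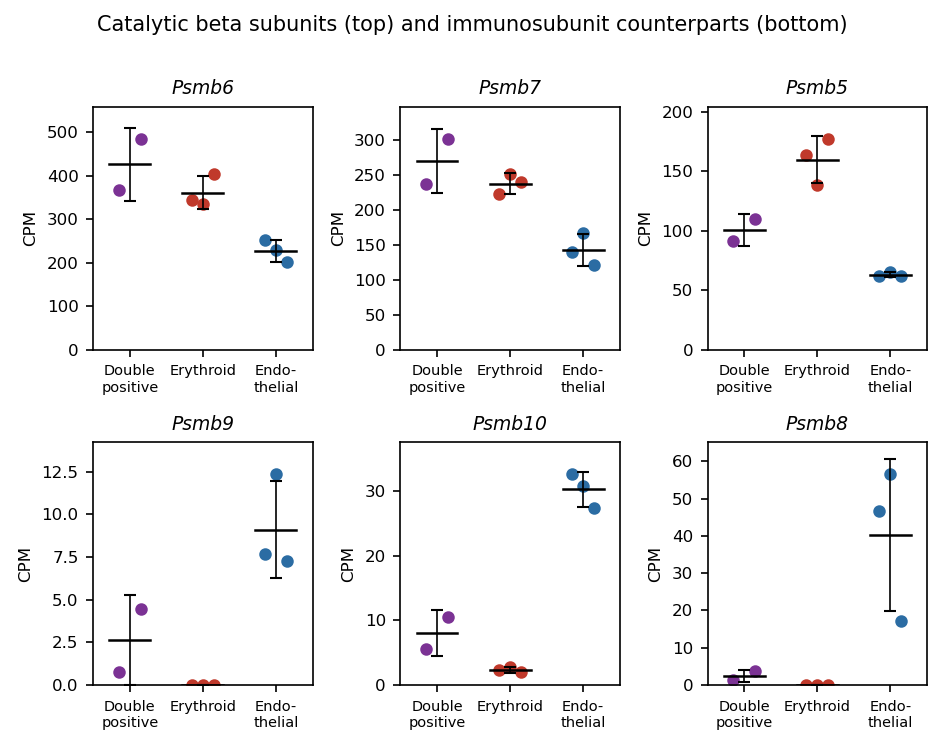
Level (CPM, y axis from 0) of the standard catalytic subunits (top) and their immune counterparts (bottom) in each library, by population; lines and bars are the mean and SD. Endothelial pools are lowest for the top genes and highest for the bottom genes, and Psmb8 and Psmb9 are at 0 in all 3 erythroid pools.

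Psmb8 and Psmb9 lie beside the peptide transporter genes on chromosome 17 (GRCm38), with Psmb8 at chr17:34197721-34201454 on the plus strand and Psmb9 at chr17:34181987-34187764 on the minus strand. The RefSeq start of Psmb9 and that of Tap1, a subunit of the transporter that carries proteasome products into the endoplasmic reticulum, were 226 bases apart and pointed away from each other, so the upstream window of Psmb9 is also the start region of Tap1. Psmb10 lies apart from them at chr8:105935735-105938444 on the minus strand. The 250 bases before each RefSeq start (GRCm38.p6) are shown because these are the genes that separate the populations most, each read 5′ to 3′ on the strand of its gene. Capitals mark ATTGG, which is CCAAT on the opposite strand.

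Psmb9, chr17:34187331-34187580, minus strand: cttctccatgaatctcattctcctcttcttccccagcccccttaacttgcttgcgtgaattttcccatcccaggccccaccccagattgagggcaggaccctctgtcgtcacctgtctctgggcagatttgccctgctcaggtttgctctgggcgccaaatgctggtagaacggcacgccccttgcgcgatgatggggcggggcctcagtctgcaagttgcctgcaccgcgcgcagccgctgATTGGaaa
Psmb8, chr17:34197945-34198194, plus strand: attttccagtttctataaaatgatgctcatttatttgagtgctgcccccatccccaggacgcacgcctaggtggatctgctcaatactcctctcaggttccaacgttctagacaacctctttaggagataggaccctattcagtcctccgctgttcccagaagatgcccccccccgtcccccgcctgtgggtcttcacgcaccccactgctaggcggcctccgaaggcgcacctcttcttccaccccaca
Psmb10, chr8:105938393-105938642, minus strand: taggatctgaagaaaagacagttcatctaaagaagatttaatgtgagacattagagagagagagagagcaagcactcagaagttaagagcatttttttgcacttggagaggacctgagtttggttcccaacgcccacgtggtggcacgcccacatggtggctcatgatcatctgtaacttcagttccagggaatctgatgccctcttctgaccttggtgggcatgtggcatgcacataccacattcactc

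The short patterns searched on both strands included CCAAT. The second was AGATAA, a pattern of the GATA type. The last was TGACNNNGC, which resembles an antioxidant response element. RefSeq windows were found for 41 of 49 members, 44 windows in all. CCAAT was in 31.8% of them, against 33.8% of 32851 windows of the same length over all genes. TGACNNNGC was in 11.4% against 10.2%, and AGATAA in 4.55%, 2 of the 44 windows, against 9.99%. A pair of longer patterns is given by name. One of the interferon response type was in 6.82% against 2.98% and one of the NF-kappaB type in 6.82% against 4.65%. Each 6.82% stands for 3 of the 44 windows, too few to read as a difference from all windows. None of the 5 patterns was in the Psmb8 or Psmb10 window, and the Psmb9 window held only the CCAAT match, which says only that these letters are not in these windows.

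Genes that prepare and display proteasome products moved in the direction of the immunosubunits in erythroid against endothelial pools, although not all of them did elsewhere. In erythroid against endothelial pools, 11 of 12 class I antigen processing genes were lower and 0 were higher (median -2.46), 0 were higher and 4 were lower in double positive against endothelial pools (median -1.54), and 7 were higher and 1 was lower in double positive against erythroid pools (median 1.24). Over all genes the shares lower were 26.6%, 6.92% and 10.6% and the shares higher 14.4%, 14.6% and 31.5%, in the same order of comparisons. The counts of 0 higher stayed at 0 at an unadjusted p under 0.05 and with DESeq2, and limma-voom gave 0 and 2. The 4 lower became 7 at an unadjusted p under 0.05, with DESeq2, with library size alone and with only the populations compared. Macrophage markers summed to 103.3 and 171 CPM in double positive pools, 0 in erythroid pools and 1471 to 3771 CPM in endothelial pools. In double positive against endothelial pools, where these markers were lower, 8 of the 12 class I genes had negative differences and 4 had positive ones. The part of macrophage RNA in the levels of these genes was not tested. Leaving out 1 library gave 7 to 11 lower in the first comparison, 1 to 6 lower in the second and 6 or 7 higher with 1 lower in the third. The count of 11 became 7 without endothelial replicate 2, and the count of 4 became 1 without double positive replicate 7, 6 without erythroid replicate 4 and 2 without double positive replicate 8 or any one endothelial library. B2m, the light chain of class I molecules, had 982 and 1063 CPM in double positive pools, 32.6, 25.4 and 41.0 CPM in erythroid pools and 889, 892 and 832 CPM in endothelial pools. It fell by 4.72 ± 0.19 on the log2 scale in erythroid against endothelial pools (adjusted p = 8.85e-07) and was higher in double positive than in erythroid pools by 4.95 ± 0.20 (adjusted p = 1.9e-06), so its level separated erythroid pools from both others. Pdia3, a chaperone of the peptide-loading complex, averaged 598 CPM in double positive pools, 185.5 CPM in erythroid pools and 804 CPM in endothelial pools. H2-D1, a class I heavy chain, was lower in double positive than in endothelial pools (-2.10 ± 0.34, adjusted p = 0.00341), as was Tapbp, which bridges class I molecules to the transporter (-2.26 ± 0.41, adjusted p = 0.00589, and 0.0546 without double positive replicate 7). Tapbp averaged 9.16 CPM in double positive pools, 63.0 CPM in erythroid pools and 44.0 CPM in endothelial pools. Unlike the rest of the list, it was therefore not lower in erythroid than in endothelial pools. Tap1 was chosen after its values were seen, for its shared start region with Psmb9. It had 2.29 and 3.46 CPM in double positive pools and 0 counts in all 3 erythroid pools. In endothelial pools Tap1 had 7.52, 13.3 and 20.5 CPM. In the GENCODE annotation, exons of Psmb9 and Tap1 overlap by 212 bases on opposite strands. Those of Psmb8 overlap the antisense gene Gm20496 by 498 bases. The counting is not stated to use strand, so reads in these overlaps cannot be assigned to 1 gene.

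Beyond the cutting subunits, the core rings showed their largest change in Psma2, an alpha ring subunit. Psma2 had 502 and 634 CPM in double positive pools, 412.5, 406 and 368 CPM in erythroid pools, and 178, 203 and 217 CPM in endothelial pools, with no overlap between any of the 3. It was 2.85-fold higher in double positive than in endothelial pools (1.51 ± 0.16, adjusted p = 0.000297), and this was the one member call in that comparison that held without each single library. It was 1.98-fold higher in erythroid than in endothelial pools (0.99 ± 0.14, adjusted p = 0.000607, and -0.55 with library size alone) and 1.44-fold higher in double positive than in erythroid pools (0.52 ± 0.16, adjusted p = 0.0255). That last call failed without erythroid replicate 6 or double positive replicate 8 (adjusted p up to 0.181). Psmb1, a structural beta subunit, had 332 and 419 CPM in double positive pools, 350.3, 418 and 403 CPM in erythroid pools, and 204, 218 and 229.6 CPM in endothelial pools. It was 1.80-fold higher in erythroid than in endothelial pools (0.85 ± 0.14, adjusted p = 0.00139) and 1.73-fold higher in double positive than in endothelial pools (0.79 ± 0.16, adjusted p = 0.00824), and did not separate the GFP+ populations from each other. Psma3, another alpha subunit, had 365 and 504 CPM in double positive pools, 335, 319 and 301 CPM in erythroid pools, and 234, 256 and 233 CPM in endothelial pools. Psma3 was higher in double positive than in endothelial pools (0.85 ± 0.16, adjusted p = 0.00728, and 0.0808 without double positive replicate 8), and its erythroid difference of 0.40 did not pass (adjusted p = 0.0555).

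Psmb2, a structural beta subunit, was the clearest core gene between the GFP+ populations. It had 288 and 360.1 CPM in double positive pools, 193, 172 and 169.7 CPM in erythroid pools, and 200, 221.5 and 181 CPM in endothelial pools. It was 1.82-fold higher in double positive than in erythroid pools (0.86 ± 0.16, adjusted p = 0.0032, at most 0.0319 without any single library), and erythroid and endothelial pools overlapped (-0.17). Psma2, Psma6 and Psmb2 were higher in double positive pools than in both other populations and Psmd3 was lower than in both. These were 3 and 1 of 48 members, where 1132 and 194 of 12136 genes tested did the same. Both counts lie near the share of all genes, so they give no result about the members as a set. Psma8, an alpha subunit known from male germ cells, was near the detection limit, with 0.573 and 2.24 CPM in double positive pools, 0, 2.22 and 2.61 CPM in erythroid pools and 0.396, 0.814 and 8.39 CPM in endothelial pools. The Psma8 level of endothelial replicate 3 stood above every other library, and none of its comparisons passed.

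The cap was where erythroid pools stood above endothelial pools most evenly: 12 of 20 cap genes were higher and 0 were lower, with 8 not past edgeR's test and a median difference of 0.64. At an unadjusted p under 0.05 the counts were 14 higher and 0 lower, with DESeq2 they were 7 and 0 and with limma-voom 12 and 0, against 14.4% of all genes higher and 26.6% lower. RLE size factors, removal of globin genes and Rn45s, and fitting only the populations compared also gave 7 and 0. Leaving out endothelial replicate 2 or double positive replicate 8 gave 7 and 0 too. On the scale of library size alone 19 of the 20 had negative differences. Without any 1 erythroid library, or without endothelial replicate 1 or 3, the counts were 8 or 9 higher and 0 lower. The call of Psmc2 failed whichever single library was left out. Those of Psmc6, Psmd1, Psmd2 and Psmd10 failed for most single libraries left out (adjusted p up to 0.22), and the other 7 held. Psmd5, an assembly chaperone of the cap's base, led them with 93.7 and 137 CPM in double positive pools, 186, 267 and 284 CPM in erythroid pools, and 54.7, 49.3 and 72.1 CPM in endothelial pools. The 3 populations did not overlap, and Psmd5 was 4.18-fold higher in erythroid than in endothelial pools (2.06 ± 0.25, adjusted p = 0.000227, and 0.52 with adjusted p = 0.0786 with library size alone). Psmd14, the lid's deubiquitinase that removes ubiquitin chains from substrates, had 136 and 231 CPM in double positive pools, 227, 221.5 and 262 CPM in erythroid pools, and 116, 94.9 and 98.8 CPM in endothelial pools. Psmd14 was 2.3-fold higher in erythroid than in endothelial pools (1.2 ± 0.21, adjusted p = 0.00183), and its 2 double positive libraries differed from each other by more than its erythroid libraries did. Psmd8, a lid subunit, had 135 and 154.5 CPM in double positive pools, 230.2, 201 and 216 CPM in erythroid pools, and 129, 131 and 126 CPM in endothelial pools. Its difference of 0.75 ± 0.14 between erythroid and endothelial pools was small but its libraries were tight (adjusted p = 0.00222). Psmd13, another lid subunit, had 53.6 and 51.9 CPM in double positive pools, 148.5, 128 and 140.4 CPM in erythroid pools, and 64.4, 57.1 and 86.8 CPM in endothelial pools. It was 2.0-fold higher in erythroid than in endothelial pools (1.0 ± 0.20, adjusted p = 0.00342), and 342 bases of its exons overlap Sirt3 on the opposite strand.

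Between double positive and erythroid pools 0 of 20 cap genes were higher and 10 were lower in edgeR's test (median -0.52), where 31.5% of all genes were higher and 10.6% lower. Of 18 core genes 6 were higher, a share near that of all genes, namely the 3 immunosubunits, Psma2, Psma6 and Psmb2, and 1, Psmb5, was lower. Whether core and cap differ in their number of calls was not tested. At an unadjusted p under 0.05 the cap counts were 0 higher and 12 lower, and both DESeq2 and limma-voom gave 0 and 10. They were 4 and 0 with library size alone. Without double positive replicate 7 the cap had 1 lower call, and without double positive replicate 8 it had 4. Psmd13 fell 2.64-fold in double positive against erythroid pools (-1.40 ± 0.23, adjusted p = 0.00157) and was the one cap call that held without each single library. The lid subunit Psmd3 had 47.0 and 49.3 CPM in double positive pools, 101, 100.1 and 97.7 CPM in erythroid pools, and 116, 79.9 and 68.4 CPM in endothelial pools. Psmd3 was lower in double positive than in erythroid pools (-1.05 ± 0.25, adjusted p = 0.0105) and lower than in endothelial pools (-0.88 ± 0.25, adjusted p = 0.0382), without overlap in either case. Psmc3, an ATPase of the unfolding ring, had 128.5 and 162 CPM in double positive pools, 224, 219.9 and 293 CPM in erythroid pools, and 196, 184 and 202 CPM in endothelial pools. It was lower in double positive than in erythroid pools (-0.76 ± 0.19, adjusted p = 0.0114), as was Psmd5 (-1.09 ± 0.27, adjusted p = 0.0123). Without double positive replicate 7 the cap and other calls in this direction fell to 2 of 12, Psmd13 and Psme3, and without double positive replicate 8 they were 5, of which Psmc3, Psmd5, Psmd13 and Psme3 were among the 12 and Psmd14 was not. The 8 members that were higher became 2, Psmb2 and Psmb8, without double positive replicate 8. With library size alone 1 of the 12, Psme3, was still lower and passed.

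Against endothelial pools, double positive pools were higher in 10 core genes and lower in 2, and in the cap 3 were higher and 1 was lower, where 14.6% of all genes were higher and 6.92% lower. The cap's 3 of 20 lie near the share of all genes. With RLE size factors, and with globin genes and Rn45s removed, the cap had 0 higher and 1 lower. The higher cap genes were Psmd5 (0.97 ± 0.26, adjusted p = 0.0301), Psmd14 (0.83 ± 0.23, adjusted p = 0.0328) and Psmc4, an ATPase with 156 and 209.8 CPM in double positive pools, 156, 150.5 and 178.5 CPM in erythroid pools and 120.5, 119.1 and 121.5 CPM in endothelial pools (0.60 ± 0.18, adjusted p = 0.0402). Double positive replicate 8 was above replicate 7 for most members, and the summed members were 8380 CPM in replicate 8 and 6527 CPM in replicate 7. Without replicate 8 the 14 higher calls fell to 1, Psma2, and the count was 9 without endothelial replicate 1 and 7 without endothelial replicate 3. The count of 3 lower calls was 0 without endothelial replicate 1 or without either double positive library, and 1 without endothelial replicate 2. Visceral endoderm markers, at 86930 and 88850 CPM in double positive pools against at most 45.7 CPM in any other library, moved with every double positive difference given here, and their part in these differences was not tested.

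The balance of core to cap reads separated double positive pools from both others without any library scaling. Summed core reads over summed cap reads were 1.60 and 1.72 in double positive pools, 1.04, 1.03 and 0.971 in erythroid pools, and 1.07, 1.17 and 1.03 in endothelial pools. Means were 1.66 ± 0.0849 (SD, n = 2) in double positive pools, 1.01 ± 0.0373 (SD, n = 3) in erythroid pools and 1.09 ± 0.0721 (SD, n = 3) in endothelial pools, so erythroid and endothelial pools overlapped and double positive pools stood apart. Per kilobase of transcript the ratio was 2.36 and 2.51 in double positive pools, 1.61, 1.57 and 1.54 in erythroid pools, and 1.63, 1.79 and 1.56 in endothelial pools. The median difference of core genes lay 0.80 above that of cap genes in double positive against erythroid pools and 0.53 above it in double positive against endothelial pools. A scaling moves both classes alike and cannot change these gaps much. Over all 18 settings run, left-out libraries and other tools among them, they ranged between 0.76 and 0.93 and between 0.51 and 0.58. In erythroid against endothelial pools the core lay 0.23 below the cap, with a range from -0.29 to -0.18. The core medians include Psmb8, Psmb9, Psmb10 and Psma8, all with negative differences in that comparison, and nearly the same genes entered every setting. Gaps without these genes were not worked out, so the range does not show that the other core genes lay below the cap. Core transcripts are shorter than cap transcripts, and over the 48 members the difference between double positive and erythroid pools fell with transcript length (Spearman's rho = -0.57, a description over genes that share libraries). Within the cap alone rho was -0.46, and within the core alone it was 0.255. In double positive against endothelial pools rho was -0.0956 over all members, -0.0547 within the core and -0.152 within the cap. Whether transcript length or RNA quality has a part in the balance was not tested.

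**Figure D3:**
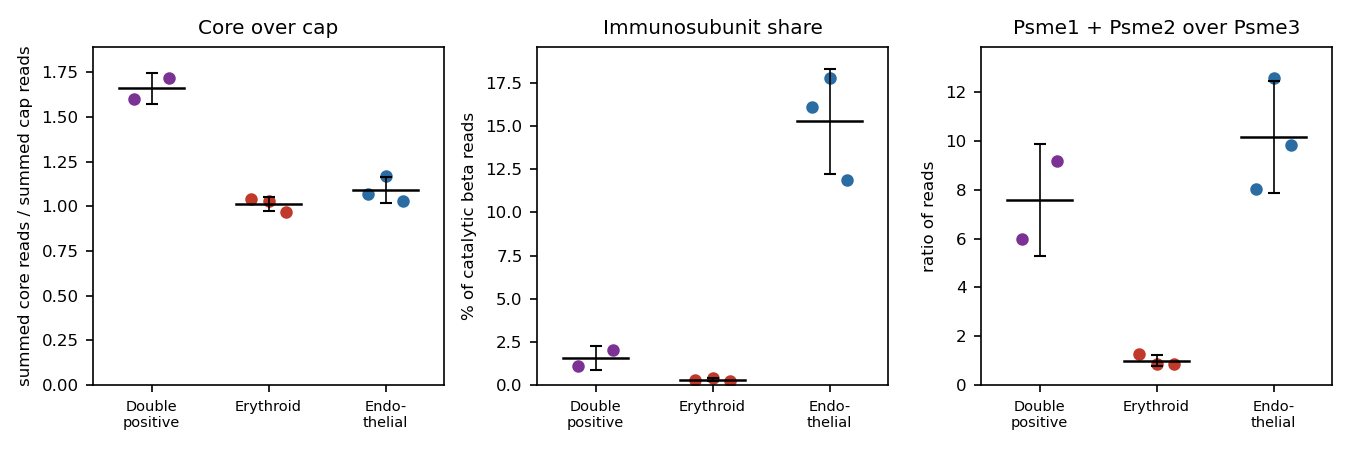
Within-library ratios (y axes from 0) for each library, by population, with mean and SD: core over cap reads, the immunosubunit percent of catalytic beta reads, and Psme1 plus Psme2 over Psme3. Double positive pools stand apart in the first ratio, endothelial pools in the second, and erythroid pools in the third, at 1.28, 0.863 and 0.87.

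**Figure D4:**
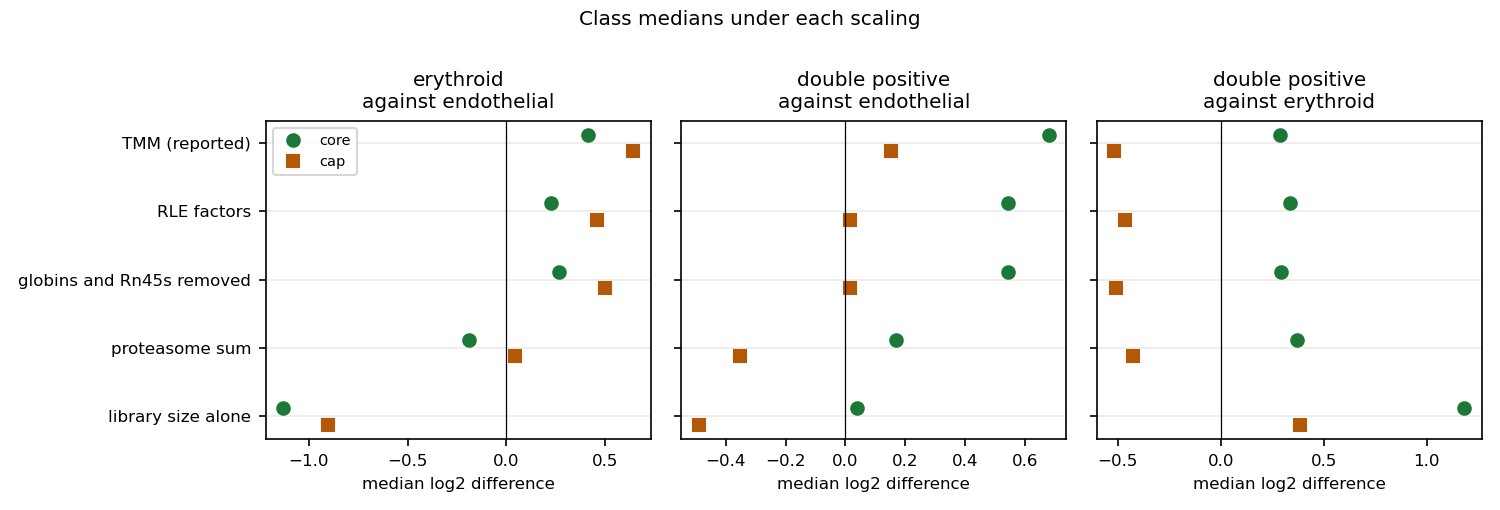
Median log2 difference (x axis) of tested core genes (circles) and cap genes (squares) under 5 library scalings (down the page) in each comparison. The position of both classes relative to 0 shifts with the scaling, by construction by nearly the same amount for core and cap.

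Activators that open the barrel in place of the cap split by population. Psme3, the mainly nuclear activator, was the member with the smallest adjusted p: it had 33.4 and 24.4 CPM in double positive pools, 119.6, 136 and 143 CPM in erythroid pools, and 23.6, 17.1 and 19.4 CPM in endothelial pools. Psme3 was 6.62-fold higher in erythroid than in endothelial pools (2.73 ± 0.23, adjusted p = 3.07e-05) and fell 4.59-fold in double positive against erythroid pools (-2.20 ± 0.26, adjusted p = 0.000278). It was the one member higher in erythroid than in endothelial pools with library size alone and past the test (1.18, adjusted p = 0.0044). Psme1, a subunit of the activator ring that interferon induces, had 101.2 and 114 CPM in double positive pools, 65.6, 43.7 and 61.9 CPM in erythroid pools, and 101.1, 105 and 112 CPM in endothelial pools. It was lower in erythroid than in endothelial pools (-0.89 ± 0.20, adjusted p = 0.00614) and higher in double positive than in erythroid pools (0.91 ± 0.22, adjusted p = 0.00973, and 0.0697 without double positive replicate 8), while double positive and endothelial pools differed by 0.02. Psme2, its partner, had 98.1 and 111 CPM in double positive pools, 87.3, 73.8 and 62.5 CPM in erythroid pools, and 88.7, 111 and 78.7 CPM in endothelial pools, and passed no test. Reads of Psme2 and Psme2b, whose transcripts were 99.4% identical over 789 bases, cannot be told apart with confidence.

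Summed reads of Psme1 and Psme2 over those of Psme3 were 5.97 and 9.20 in double positive pools, 1.28, 0.863 and 0.87 in erythroid pools, and 8.03, 12.6 and 9.86 in endothelial pools. Erythroid pools were lowest without overlap, and double positive and endothelial pools overlapped. Psme3 lies at chr11:101316213-101323537 on the plus strand, and the 250 bases before its RefSeq start (GRCm38.p6) are shown because it was the most clearly changed member, with ATTGG in capitals.

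Psme3, chr11:101315963-101316212, plus strand: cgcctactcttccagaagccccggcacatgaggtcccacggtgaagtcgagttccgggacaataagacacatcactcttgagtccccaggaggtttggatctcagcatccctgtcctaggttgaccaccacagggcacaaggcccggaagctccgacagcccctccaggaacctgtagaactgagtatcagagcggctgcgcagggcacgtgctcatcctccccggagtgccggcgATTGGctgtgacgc

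Psme4, a large nuclear activator known for histone breakdown in male germ cells, had 54.4 and 56.8 CPM in double positive pools, 45.4, 92.8 and 90.9 CPM in erythroid pools, and 15.1, 27.0 and 14.0 CPM in endothelial pools. It was 4.08-fold higher in erythroid than in endothelial pools (2.03 ± 0.37, adjusted p = 0.00227) and 2.97-fold higher in double positive than in endothelial pools (1.57 ± 0.39, adjusted p = 0.0227). Erythroid replicate 4 lay below both double positive libraries, so the GFP+ populations overlapped, and the double positive call failed without endothelial replicate 1 or 3 or either double positive library (adjusted p up to 0.121). Psmf1, a protein first described as a proteasome inhibitor, had 33.0 and 36.4 CPM in double positive pools, 67.3, 65.6 and 71.0 CPM in erythroid pools, and 32.1, 13.3 and 20.2 CPM in endothelial pools. Psmf1 was 3.10-fold higher in erythroid than in endothelial pools (1.63 ± 0.33, adjusted p = 0.00381), and with library size alone the difference was 0.08. Its difference of -0.97 between double positive and erythroid pools missed the threshold (adjusted p = 0.0624) although the libraries did not overlap.

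Of the 4 chaperones that build the alpha ring, 1 passed a test. Psmg1 had 40.1 and 52.3 CPM in double positive pools, 19.6, 20 and 21.5 CPM in erythroid pools, and 26.3, 32.7 and 20.3 CPM in endothelial pools. It was 2.27-fold higher in double positive than in erythroid pools (1.18 ± 0.33, adjusted p = 0.0186), a call that failed without either double positive library (adjusted p up to 0.162). Psmg2 had 43.5 and 60.0 CPM in double positive pools, 46.3, 58.0 and 47.9 CPM in erythroid pools, and 15.1, 43.3 and 34.9 CPM in endothelial pools. Psmg3 had 27.7 and 21.0 CPM in double positive pools, 23.3, 31.7 and 15.6 CPM in erythroid pools, and 23.6, 20.7 and 18.9 CPM in endothelial pools, so its populations overlapped throughout. Psmg4 had 20.8 and 17.5 CPM in double positive pools, 11.2, 8.87 and 3.26 CPM in erythroid pools, and 10.4, 16.1 and 16 CPM in endothelial pools. Neither Psmg2, Psmg3 nor Psmg4 passed the test in any comparison.

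**Figure D5:**
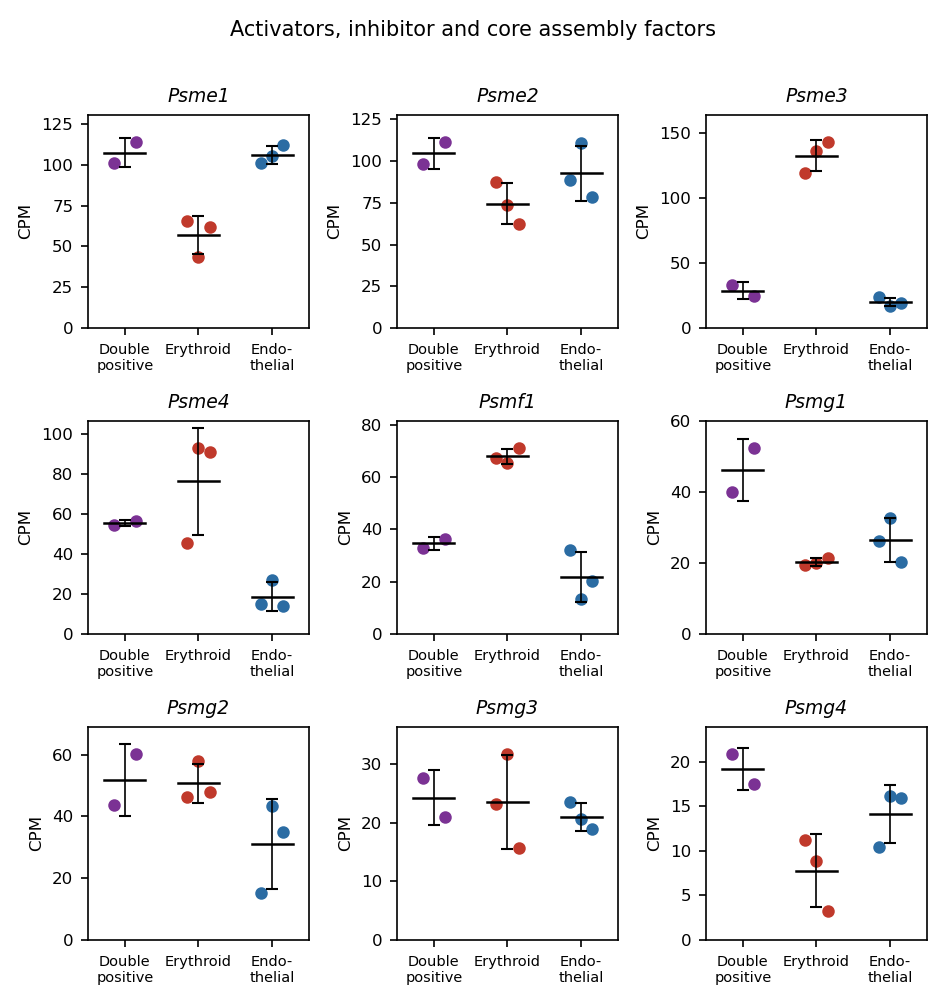
Level (CPM, y axis from 0) of activators, the inhibitor and assembly factors in each library, by population, with mean and SD. Psme3 and Psmf1 are highest in erythroid pools without overlap and Psme1 is lowest there, at 65.6, 43.7 and 61.9 CPM.

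Levels of different members were compared per kilobase of the principal transcript. Psmb6 was the most abundant core gene in each population, at a mean of 533 CPM per kilobase in double positive pools, 451 in erythroid pools and 285 in endothelial pools. The median of the 14 standard core genes, all but the immunosubunits, Psma8 and Psmb11, was 242 CPM per kilobase in double positive pools, 206 in erythroid pools and 147 in endothelial pools. That of the 20 cap genes was 80.9 in double positive pools, 99.2 in erythroid pools and 68.3 in endothelial pools, on the same scale. Subunits that stand in equal number in the core thus differed 4.76-fold, 4.03-fold and 4.16-fold in transcript level between the highest and the lowest, in double positive, erythroid and endothelial pools. Spread between libraries of a population was taken over members that averaged at least 10 CPM, which leaves out those at low level. The median coefficient of variation was 0.161 in double positive pools (43 members), 0.115 in erythroid pools (42) and 0.113 in endothelial pools (45). The highest values were 0.366 for Psmd14, 0.351 for Psme4 and 0.509 for Psmb8, in the same order. This measure and gene set differ from those of the folds above, so they are not compared. Near-identical copies were found in the annotation for 13 members, Psma2, Psma3 and Psmb5 among them (at least 300 matching bases at 95% identity), and 14 members share exon bases with another gene, 11 of them on the opposite strand, so their counts are less certain.

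Genes that work with the proteasome include shuttles, assembly factors and enzymes. Out of 16 partner genes, erythroid against endothelial pools had 6 higher and 2 lower, with 2 higher and 0 lower in double positive against endothelial pools, and 2 higher and 3 lower in double positive against erythroid pools. Over all genes the shares were 14.4% higher and 26.6% lower, 14.6% and 6.92%, and 31.5% and 10.6%. The second comparison's 2 of 16 lie near the share of all genes. The partner counts were 1 and 10, 1 and 3, and 6 and 2 with library size alone. With the proteasome sum the first were 2 and 3 and the second 1 and 3. The 0 lower with edgeR was also 0 at an unadjusted p under 0.05 and with limma-voom, and 1 with DESeq2. Pomp, the chaperone that matures the core, averaged 181 CPM in double positive pools, 89.3 CPM in erythroid pools and 228 CPM in endothelial pools. Pomp was lower in erythroid than in endothelial pools (-1.35 ± 0.15, adjusted p = 0.000127) while 7 core genes were higher there. Ubqln2, a shuttle that brings ubiquitinated proteins to the cap, averaged 91.7 CPM in double positive pools, 4.79 CPM in erythroid pools and 14.9 CPM in endothelial pools. It was higher in double positive than in erythroid pools (4.26 ± 0.39, adjusted p = 6.89e-05) and than in endothelial pools (2.62 ± 0.36, adjusted p = 0.00136). Txnl1, a cap-bound thioredoxin, was higher in double positive than in endothelial pools by 0.97 ± 0.18 (adjusted p = 0.00552).

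Of 4 regulators of proteasome genes tested, 1 was higher and 0 were lower with edgeR in erythroid against endothelial pools, where 41% of all genes were called in either direction. A list this small gives no result as a group. At an unadjusted p under 0.05 the counts were 2 and 1, as they were without erythroid replicate 4. With DESeq2, limma-voom, RLE size factors, the proteasome sum or globin genes and Rn45s removed they were 1 and 1. They were 0 and 3 with library size alone. The higher gene was Ngly1, the glycanase that activates the factor Nfe2l1 (1.47 ± 0.30, adjusted p = 0.00424; -0.07 with library size alone). With edgeR 0 passed in double positive against endothelial pools, where 1, Vcp, had an unadjusted p under 0.05, DESeq2 called 1 and limma-voom 0. In the third comparison 1 was lower in double positive against erythroid pools, the segregase Vcp, which pulls proteins out of complexes (-0.95 ± 0.21, adjusted p = 0.00605; 0.0587 without double positive replicate 7). Of 6 ubiquitin genes, a list too small to read against the share of all genes, 3 were higher and 1 lower in erythroid against endothelial pools, 2 higher and 1 lower in double positive against endothelial pools, and 1 higher and 1 lower in double positive against erythroid pools. Uba1, the enzyme that activates ubiquitin, averaged 91.4 CPM in double positive pools, 309 CPM in erythroid pools and 138 CPM in endothelial pools. Uba1 was higher in erythroid than in endothelial pools (1.17 ± 0.15, adjusted p = 0.000323) and lower in double positive than in erythroid pools (-1.76 ± 0.18, adjusted p = 0.000108), and with library size alone the first of these differences was -0.38. Rps27a and Ubb, which encode ubiquitin, were higher in double positive than in endothelial pools (0.62 ± 0.16, adjusted p = 0.0256) and in double positive than in erythroid pools (0.86 ± 0.29, adjusted p = 0.0386), and both calls failed without double positive replicate 8 (adjusted p of 0.245 and 0.224). The Ubb call also failed without endothelial replicate 1, erythroid replicate 4 or 5 or double positive replicate 7 and with no filter on low counts (adjusted p of 0.0506 to 0.102). The Rps27a call also failed without endothelial replicate 2 or 3 (adjusted p of 0.0669 and 0.0722). Leaving out double positive replicate 8 left 1 double positive library. The median difference of the 6 ubiquitin genes in double positive against endothelial pools was then 0.25 with edgeR, against 0.46 with all libraries, and the calls in this comparison did not hold.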

How the data were processed

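RNA of 24 or 25 sorted cells per pool was amplified for 14 cycles by Smart-seq2, per the labels' protocols, and the authors deposited a single table of raw counts per gene for 8 libraries. The submitters' processing notes name FastQC, HTSeq and mm10. Which aligner, gene annotation and strandedness option were used is not given in the sources used here. Smart-seq2 without molecular identifiers counts amplified reads, so counting errors understate the true error, and it does not mark strand.

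Groups were taken from the labels. The members and gene lists were chosen with earlier results of these data known. Counts were fitted for all 8 libraries in edgeR 4.0.16 (R 4.3.3; filterByExpr with a minimum count of 10, TMM, robust quasi-likelihood test, two-sided, Benjamini-Hochberg over 12136 genes, threshold 0.05), first tested on simulated data. The common biological coefficient of variation was 0.5413. Where a population had 0 counts, folds are bounds against 3 counts over the population. Exon lengths and overlaps came from GENCODE vM21 (GRCm38) and promoter windows from RefSeq. All members could be named; values in every library were given for catalytic subunits, immunosubunits, activators, Psmf1, Psmg genes and up to 4 members per class and comparison with the smallest adjusted p. From the other lists up to 2 genes per comparison were named. Some genes of these lists are not reported here. Paaf1 was not matched. No pair of libraries of a population held the same counts. Alternatives were DESeq2 1.42.0, limma-voom 3.58.1, other scalings and filters, and leaving out each library.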

Additional observations from a re-analysis of the deposited data

How the results depend on the processing

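With library size alone, which moves the whole distribution of genes, the member calls became 1 higher and 39 lower in erythroid against endothelial pools (22 and 4 as reported), 1 and 11 in double positive against endothelial pools (14 and 3) and 24 and 1 in double positive against erythroid pools (8 and 12). With the proteasome sum as library size they became 6 and 7, 1 and 9, and 10 and 11. Fitting only the populations compared gave 5 higher in double positive against erythroid pools. Leaving out 1 library gave 17 to 20 higher and 4 to 4 lower in erythroid against endothelial pools, 1 to 14 higher and 0 to 3 lower in double positive against endothelial pools, and 2 to 8 higher and 2 to 13 lower in double positive against erythroid pools. Under the other alternatives run, the counts over all members stayed within 1.5 times. Counts by class moved further: cap genes higher in erythroid against endothelial pools were 12 as reported and 7 with DESeq2, RLE size factors, globin genes and Rn45s removed, or only the populations compared, and those higher in double positive against endothelial pools were 3 as reported and 0 with RLE size factors or globin genes and Rn45s removed. Class I genes lower in that comparison were 4 as reported and 7 with DESeq2 or only the populations compared, and core genes higher in double positive against erythroid pools were 6 as reported and 3 with only the populations compared. Per kilobase the immunosubunit share was 1.04% in double positive pools (1.57% over reads), 0.22% in erythroid pools (0.316%) and 10.1% in endothelial pools (15.2%). Without 1 library these shares ranged from 1.09% to 2.05% in double positive pools, 0.278% to 0.355% in erythroid pools and 14.0% to 16.9% in endothelial pools.

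Reversed log2 differences, counted where the reported or the alternative value passed the test, numbered 49. With library size alone they were, in erythroid against endothelial pools, -0.68 for Psma1, -0.55 for Psma2, -1.14 for Psma3, -1.49 for Psma4, -1.05 for Psma5, -1.24 for Psma6, -1.21 for Psma7, -0.70 for Psmb1, -0.56 for Psmb3, -1.12 for Psmb4, -0.20 for Psmb5, -0.88 for Psmb6, -0.81 for Psmb7, -1.20 for Psmc1, -1.12 for Psmc2, -1.20 for Psmc3, -1.12 for Psmc4, -1.12 for Psmc5, -0.91 for Psmc6, -0.90 for Psmd1, -0.66 for Psmd10, -0.62 for Psmd11, -1.27 for Psmd12, -0.54 for Psmd13, -0.35 for Psmd14, -0.93 for Psmd2, -1.37 for Psmd3, -0.56 for Psmd4, -1.23 for Psmd6, -0.85 for Psmd7, -0.80 for Psmd8, -0.85 for Psmd9 and -1.39 for Psmg3. In double positive against endothelial pools they were -0.04 for Psmc4, -0.57 for Psmd7 and -0.47 for Psmd8, and in double positive against erythroid pools 0.84 for Psmb1, 0.59 for Psmb3, 0.23 for Psmb5, 0.90 for Psmc2, 0.14 for Psmc3, 0.10 for Psmd1, 0.18 for Psmd11, 0.04 for Psmd2, 0.05 for Psmd4, 0.28 for Psmd7 and 0.33 for Psmd8. With the proteasome sum they were -0.17 for Psmc2 and -0.01 for Psmd2 in erythroid against endothelial pools. Among values that passed under neither setting, 129 of 1287 changed sign. Further single-gene results lost the call in 198 cases and gained it in 62, and beyond fewer libraries or genes in a fit the cause was not tested. No paired analysis was possible because the replicate numbers run from 1 to 8 and no population shares one with another. Levels of Psmb8, Psmb9 and Psmb10 outside endothelial pools, and of Psma8 in every population, rest on few reads, which limits their fold changes.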
